A study of Mus musculus with 11 samples.

Results

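The genes described here were 10 transcription factors and cofactors of the heart muscle lineage: Nkx2-5, Gata4, Tbx5, Tbx20, Hand2, Mef2c, Mef2a, Irx4, Myocd and Hopx. They were taken as all probe sets whose gene symbol in the array annotation was one of these names, which gave 27 of the 45037 probe sets that were not controls and 10 of 18193 genes. A probe set is a group of short probes on the array that reads one stretch of transcript, and 1 gene can have several. Mef2a had 6 probe sets, Mef2c had 5, Tbx20 and Hand2 had 3 each, Gata4, Tbx5, Myocd and Hopx had 2 each, and Nkx2-5 and Irx4 had 1 each. Every probe set of the 10 genes was kept, and none carried a second gene symbol.

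Affymetrix mouse arrays measured total RNA of 11 samples, which all shared a mixed background of C57/Bl and BlackSwiss mice. The pluripotent cells had 3 arrays a group: ViPSC, reprogrammed from ventricular myocytes, TiPSC, reprogrammed from tail tip fibroblasts, and ESC, embryonic stem cells of matching genetics. The sources, ventricular myocytes (labelled ventricular cardiomyocytes, VM) and fibroblasts of the tail tip (TTF), came from pups at postnatal day 1 and had 1 array each, with no replicates. The pluripotent cells were undifferentiated, grew with LIF on irradiated feeder fibroblasts, and were freed of feeders by differential plating before RNA was taken. How the induced cells were reprogrammed, how many lines or pups were used, and whether replicate arrays were separate cultures are not given in the sources used here, so the p-values below measure the spread between these arrays, which may be technical. Values are log2 expression levels, on which a difference of 1 is a doubling.

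These proteins act together on shared enhancers of contractile, ion channel and hormone genes. Nkx2-5 (a homeodomain protein), Gata4 (a zinc finger protein) and Tbx5 (a T-box protein) bind one another and are needed for heart formation, Hand2 and Tbx20 are needed for growth of the ventricles, and the MEF2 proteins Mef2c and Mef2a drive muscle genes in partnership with them. Irx4 is a homeodomain protein of ventricular muscle, myocardin (Myocd) is a coactivator of serum response factor (Srf), and Hopx is a small homeodomain protein that does not bind DNA and restrains Srf.

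The markers fitted the labels of the cells. The median of 11 cardiomyocyte markers was 14.22 in VM, 3.96 in TTF and between 3.89 and 4.15 in the 9 pluripotent arrays, and the median of 7 pluripotency markers was at least 12.33 in every pluripotent array and 3.73 and 3.94 in VM and TTF. VM also held transcripts of other cells. The median of 8 endothelial markers was 10.54 in VM against 4.22 in TTF, and that of 15 fibroblast markers was 9.91 in VM against 13.46 in TTF. Within the pluripotent arrays, the fibroblast median ran from 6.20 to 7.26 and was highest in TiPSC. ESC replicate 1 stood apart in the median of 9 primitive endoderm markers. It was 7.90, against 6.75 and 6.36 in ESC replicates 2 and 3 and 5.86 to 6.33 in the induced cells. Not every marker was highest there. Sparc was at 11.06 in ESC replicate 1, against 11.20 in ESC replicate 3 and 11.34 to 11.40 in ViPSC. Lamb1 was at 10.85 in both ESC replicate 1 and ViPSC replicate 1. The part of these other cells in the results below was not tested.

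For 7 of the 10 genes a RefSeq promoter table (GRCm38.p6) held windows from 250 bases before to 50 bases after a transcript start, 10 windows in all. Gata4, Tbx5 and Myocd had no window there. Both strands were searched for motifs of GATA, Nkx2-5, T-box and MEF2 proteins and for the site of Srf. The 3 windows shown hold the GATA motif, the MEF2 motif and the Srf site, each found in 1 window. Capitals mark the match, and each sequence is printed 5′ to 3′ along its gene. The Hopx window (chr5:77115124-77115373, minus strand) holds a CArG box, the site of Srf, at bases -83 to -74. The Hand2 window (chr8:57320733-57320982, plus strand) holds the GATA motif on each strand, as TGATAA at -215 to -210 and as TTATCT, the reverse complement of AGATAA, at -172 to -167. The Mef2a window (chr7:67372851-67373108, minus strand) holds a MEF2 motif over the start itself, at bases -2 to 8.
Hopx: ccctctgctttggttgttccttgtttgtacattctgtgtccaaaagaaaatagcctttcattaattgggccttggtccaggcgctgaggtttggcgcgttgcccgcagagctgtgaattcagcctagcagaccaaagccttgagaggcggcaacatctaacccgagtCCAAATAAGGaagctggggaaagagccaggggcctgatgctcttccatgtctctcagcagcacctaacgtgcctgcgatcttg
Hand2: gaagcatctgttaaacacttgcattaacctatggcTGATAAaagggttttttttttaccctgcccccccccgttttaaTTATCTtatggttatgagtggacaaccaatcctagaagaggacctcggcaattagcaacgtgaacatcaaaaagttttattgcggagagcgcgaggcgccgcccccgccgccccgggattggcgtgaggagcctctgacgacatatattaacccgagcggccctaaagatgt
Mef2a: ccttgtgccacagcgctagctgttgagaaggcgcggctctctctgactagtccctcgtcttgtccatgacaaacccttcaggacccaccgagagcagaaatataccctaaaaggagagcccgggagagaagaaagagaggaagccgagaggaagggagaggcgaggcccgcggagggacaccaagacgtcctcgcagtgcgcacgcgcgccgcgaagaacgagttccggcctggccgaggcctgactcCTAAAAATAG
Of 32851 full windows in the table, 0.557% held the MEF2 motif, 1.63% the CArG box and 18.6% AGATAA or TGATAA. Each of these was in 1 of the 10 windows here. The Nkx2-5 motif AAGTG was in 5 of the 10 windows, of Hand2, Hopx and Mef2c, and in 46.4% of all windows. The T-box motif AGGTGT was in 1 window, of Mef2c, and in 13.7% of all. No 2 motifs overlapped. Such letters are a description of the windows and do not show that a factor was bound there.

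The first comparison asked how the 10 genes differed between the source cells. VM had the highest level of the 11 arrays in all 27 probe sets, which 21.0% of all 45037 probe sets did. In 18 of the 27 the level was at least 2 log2 units above TTF, against a background of 3.34%, and in none was it 2 units below (background 3.26%). In 18 it was also at least 2 units above every other array (background 2.04%). The median VM minus TTF difference of the 27 probe sets was 2.51, against 0.00 over all probe sets. With 1 array of each there was no test. Where TTF was near the low end of the scale, as it was for most of these probe sets, RMA compresses differences, so differences are given in log2 units of this scale and a fold only for Mef2a and Hopx. More of a cell type and more RNA per cell cannot be told apart in bulk RNA such as this.

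Nkx2-5, among the earliest markers of heart progenitors, was at 4.93, 5.02 and 5.02 in the 3 ViPSC arrays, 4.81, 5.19 and 4.98 in TiPSC, 4.97, 4.96 and 5.26 in ESC, 5.07 in TTF and 9.87 in VM. The pluripotent groups overlapped, TTF lay among them, and VM was 4.81 log2 units above TTF. Gata4, a zinc finger activator of natriuretic peptide and myosin genes, was read at its brighter probe set 1418863_at at 3.89, 4.11 and 4.06 in ViPSC, 4.19, 4.25 and 3.99 in TiPSC, 4.92, 4.25 and 4.26 in ESC, 4.18 in TTF and 8.36 in VM. VM was thus 4.18 above TTF, and the highest pluripotent value was that of ESC replicate 1. The other Gata4 probe set, 1418864_at, was at 3.68 in TTF and 4.64 in VM.

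Tbx5, which partners Nkx2-5 and Gata4, was the exception among the 10. At 1425695_at it was at 4.33, 4.82 and 4.18 in ViPSC, 4.43, 4.40 and 4.33 in TiPSC, 4.23, 4.58 and 4.27 in ESC, 4.29 in TTF and 5.35 in VM. Its other probe set, 1425694_at, was at 3.86 in TTF and 4.62 in VM. VM was the highest array in both, but by 1.06 and 0.76 log2 units over TTF, so no Tbx5 probe set reached a difference of 2. Both were dim even in VM, at percentiles 57.5 and 47.4 of all probe sets of that array. How well they read the Tbx5 transcript was not tested.

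Tbx20, a T-box regulator of ventricular myocardium, differed by probe set. At 1453351_at it was at 3.28, 3.32 and 3.32 in ViPSC, 3.21, 3.15 and 3.32 in TiPSC, 4.08, 3.06 and 3.28 in ESC, 3.13 in TTF and 9.69 in VM, a difference of 6.55. The 9 pluripotent arrays lay close together except for ESC replicate 1, which was also the highest pluripotent array at 1422219_a_at (4.19, against 3.61 to 3.90 in the others). The other probe sets gave smaller differences: 1425158_at was at 3.35 in TTF and 7.66 in VM, and 1422219_a_at, the brightest on average, at 3.61 and 5.55.

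Hand2, a basic helix-loop-helix factor, depended most on the probe set. At 1436041_at it was at 3.82, 3.66 and 3.54 in ViPSC, 3.76, 3.77 and 3.90 in TiPSC, 3.74, 3.71 and 3.74 in ESC, 3.58 in TTF and 8.80 in VM, 5.22 above TTF. At 1422221_at, which had the highest mean over the arrays, TTF was at 4.88, VM at 5.33 and the pluripotent arrays between 4.39 and 5.18, so that VM stood only 0.45 above TTF. The remaining one, 1443854_at, was at 3.37 in TTF and 4.78 in VM. Which stretches of the transcript these probe sets read is not analysed here.

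**Figure D1:**
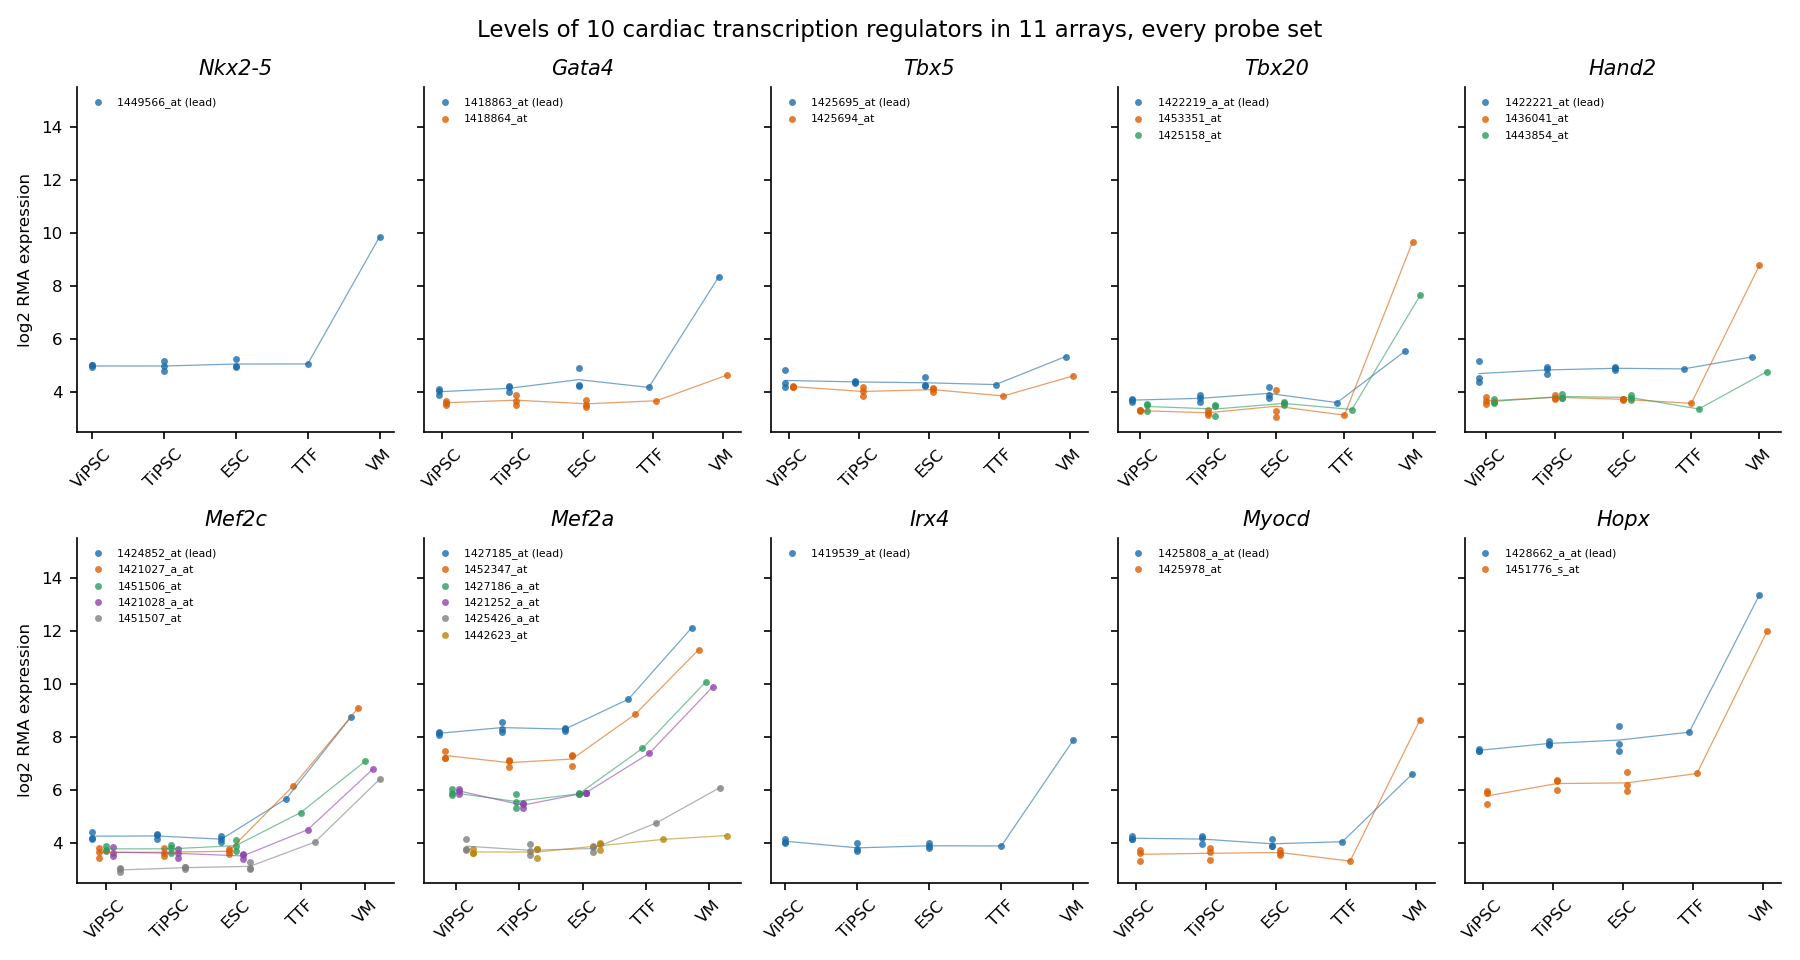
The panels plot the log2 level (vertical axis, RMA log2 units) of each of the 10 genes in the 11 arrays by group (horizontal axis). Every probe set has its own colour, with points for arrays and a line joining the group means. The legend marks the lead probe set, the one with the highest mean. VM lies above the other arrays in every probe set, at the lead probe set by 4.81 log2 units over TTF for Nkx2-5 and 0.45 for Hand2.

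In every probe set of the MEF2 genes TTF was above all 9 pluripotent arrays, and in every probe set of the other 8 genes it was not. Mef2c, the MEF2 gene needed for heart looping, was at 4.42, 4.18 and 4.17 in ViPSC, 4.35, 4.31 and 4.14 in TiPSC, 4.26, 4.02 and 4.15 in ESC, 5.67 in TTF and 8.77 in VM at 1424852_at. At 1421027_a_at it ran between 3.45 and 3.82 in the pluripotent arrays and was at 6.17 in TTF and 9.10 in VM. All 5 Mef2c probe sets gave this order, with VM 3.19 to 5.44 above the pluripotent mean and 1.95 to 3.09 above TTF. The VM minus TTF difference of Mef2c is therefore smaller than its VM minus pluripotent difference, since TTF itself was 0.91 to 2.51 above the pluripotent mean.

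Mef2a, the MEF2 gene that prevails in the heart after birth, was well above the low end of the scale in every cell type, except at its 2 dimmest probe sets. At 1427185_at it was at 8.14, 8.20 and 8.07 in ViPSC, 8.32, 8.19 and 8.55 in TiPSC, 8.36, 8.22 and 8.32 in ESC, 9.43 in TTF and 12.12 in VM. TTF was above all pluripotent arrays and VM was above TTF by 2.69 log2 units (6.48-fold). The probe sets 1452347_at, 1427186_a_at and 1421252_a_at gave 2.44, 2.51 and 2.51. The 2 dimmer ones gave 1.33 (1425426_a_at) and 0.15 (1442623_at, at 4.14 in TTF and 4.28 in VM). TTF was at least 1 log2 unit above the highest pluripotent array in 6 of the 27 probe sets of the 10 genes, against 8.55% of all probe sets, and all 6 belonged to Mef2c or Mef2a.

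Irx4, which marks ventricular rather than atrial muscle, was at 4.17, 4.03 and 4.01 in ViPSC, 3.76, 3.71 and 3.98 in TiPSC, 3.81, 4.0 and 3.88 in ESC, 3.89 in TTF and 7.89 in VM. VM was 4.0 above TTF, which lay within the pluripotent range. Myocd was at 3.74, 3.34 and 3.64 in ViPSC, 3.35, 3.82 and 3.66 in TiPSC, 3.54, 3.64 and 3.74 in ESC, 3.32 in TTF and 8.66 in VM at 1425978_at, a difference of 5.34. At its other probe set, 1425808_a_at, TTF was at 4.05 and VM at 6.61, and both put the pluripotent arrays near TTF.

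Hopx was at 7.48, 7.47 and 7.55 in ViPSC, 7.73, 7.85 and 7.69 in TiPSC, 7.75, 8.42 and 7.48 in ESC, 8.18 in TTF and 13.35 in VM at 1428662_a_at. VM was 36.0-fold above TTF, and TTF was inside the ESC range. The second probe set, 1451776_s_at, was at 6.62 in TTF and 11.99 in VM (41.2-fold). ESC replicate 2 was the highest pluripotent array in both.

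**Figure D2:**
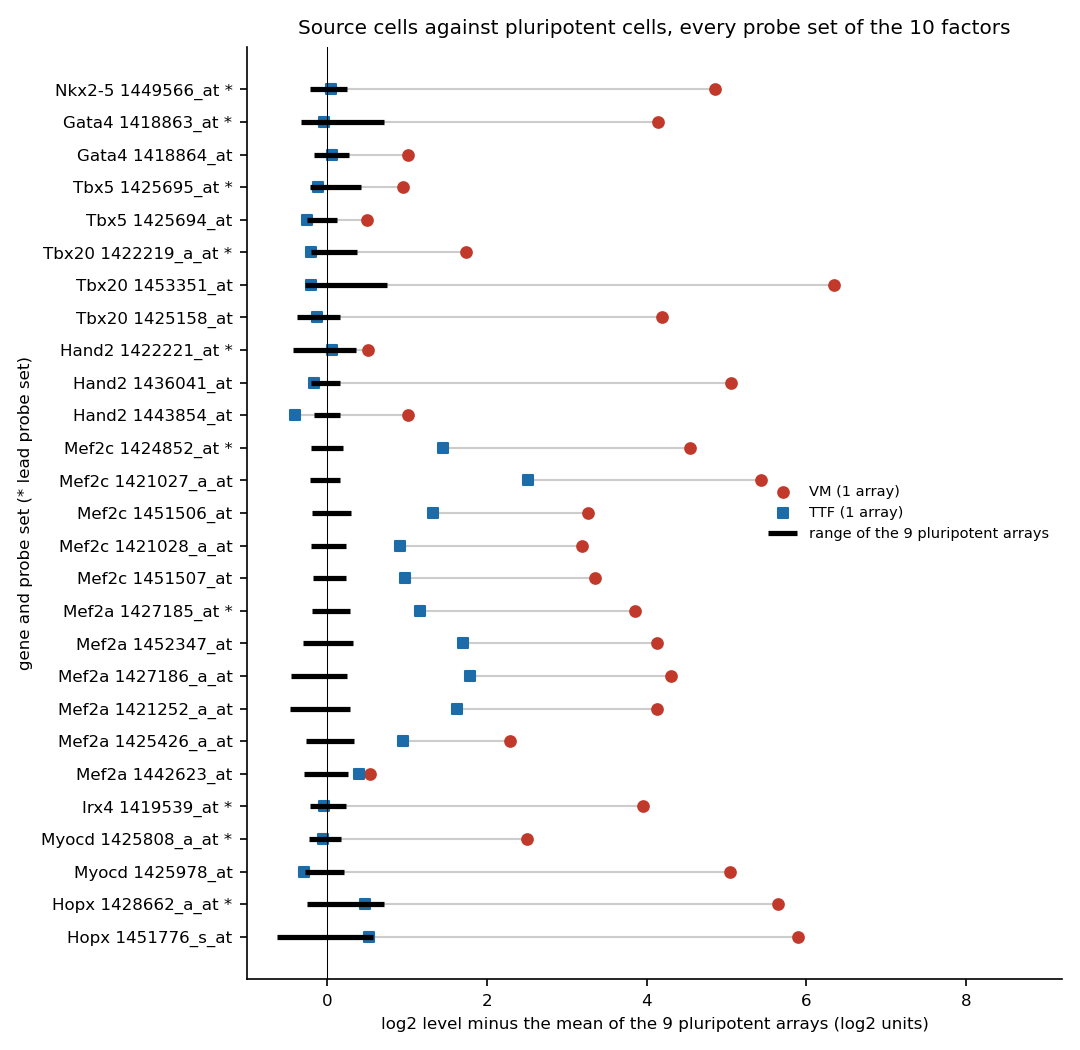
For each of the 27 probe sets (vertical axis), the horizontal axis gives the level of VM (circles) and TTF (squares), 1 array each, minus the mean of the 9 pluripotent arrays in log2 units, and the black bar spans those 9 arrays. VM lies to the right of every bar, while TTF lies well to the right of it in the Mef2c and Mef2a probe sets other than 1442623_at.

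Counted by gene at the lead probe set, VM exceeded TTF by 2 log2 units or more in 7 of 10, against 4.68% of genes. With the probe set of largest range, chosen after the values were seen, the count was 9 of 10 (5.24% of genes), with Hand2 and Tbx20 added and Tbx5 left out. Nkx2-5, Irx4, Myocd and Hopx passed 2 in every probe set.

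The genes most like each factor were those with the smallest root mean square difference over the 11 arrays, after each gene was set against its own mean of the pluripotent arrays. Tbx5, Tbx20 and Hand2 had ranges under 2 log2 units at the lead probe set and were left out. For Nkx2-5 these were Strip2, Hhatl and Tnni3k (0.09, 0.12 and 0.14 log2 units), for Irx4 Rbm24, Mir99ahg and Fndc5 (0.12 to 0.14), and for Myocd Cytl1, Endou and Ndufb10 (0.06 to 0.12). For Mef2c they were Fgl2, Acadl and Ppp1r3d (0.13 to 0.16), and for Mef2a Lims2, Etfdh and Hadha (0.17 to 0.20). Gata4 was nearest Gbp6, Sh2d4a and Sgca (0.21 to 0.23), and Hopx nearest Hspb3, Usp18 and Eln (0.22 to 0.28). Among the genes listed, Tnni3k, Rbm24 and Sgca are muscle genes, and Acadl, Etfdh and Hadha serve mitochondrial fat oxidation. The others were not sorted by role, so no shared theme is drawn from the list. Pearson's r over the 11 arrays was 0.98 or more in each case, and such values describe profiles that rest largely on the single VM array.

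Genes known to act with or below the 10 factors were counted from lists made for this comparison. Of 30 measured downstream cardiac genes, 26 were higher in VM than in TTF by at least 2 log2 units and none was lower by that much, with a median of 7.85. The highest in VM were Myl2 (15.02 against 3.96 in TTF), the ventricular regulatory light chain, Mb (15.00 against 4.48), which encodes myoglobin, and Myh6 (14.90 against 2.89), a cardiac myosin heavy chain. Of 43 measured other cardiac regulators, 9 were higher by that margin and 2 were lower, with a median of 0.44, against 4.68% of genes higher and 4.62% lower. The widest were Smyd1 (10.51 against 4.52), a muscle methyltransferase, Gata6 (10.84 against 4.95), the close relative of Gata4, Ppargc1a (9.33 against 3.63), a coactivator of mitochondrial genes, Ankrd1 (12.06 against 8.02) and Hey1 (8.83 against 4.88). Nfatc4 (6.29 against 10.01) and Irx1 (5.98 against 8.0), a relative of Irx4, were the 2 lower by that margin, and Irx2, Mrtfa and Cited2 followed with differences of -1.17, -0.91 and -0.46.

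**Figure D3:**
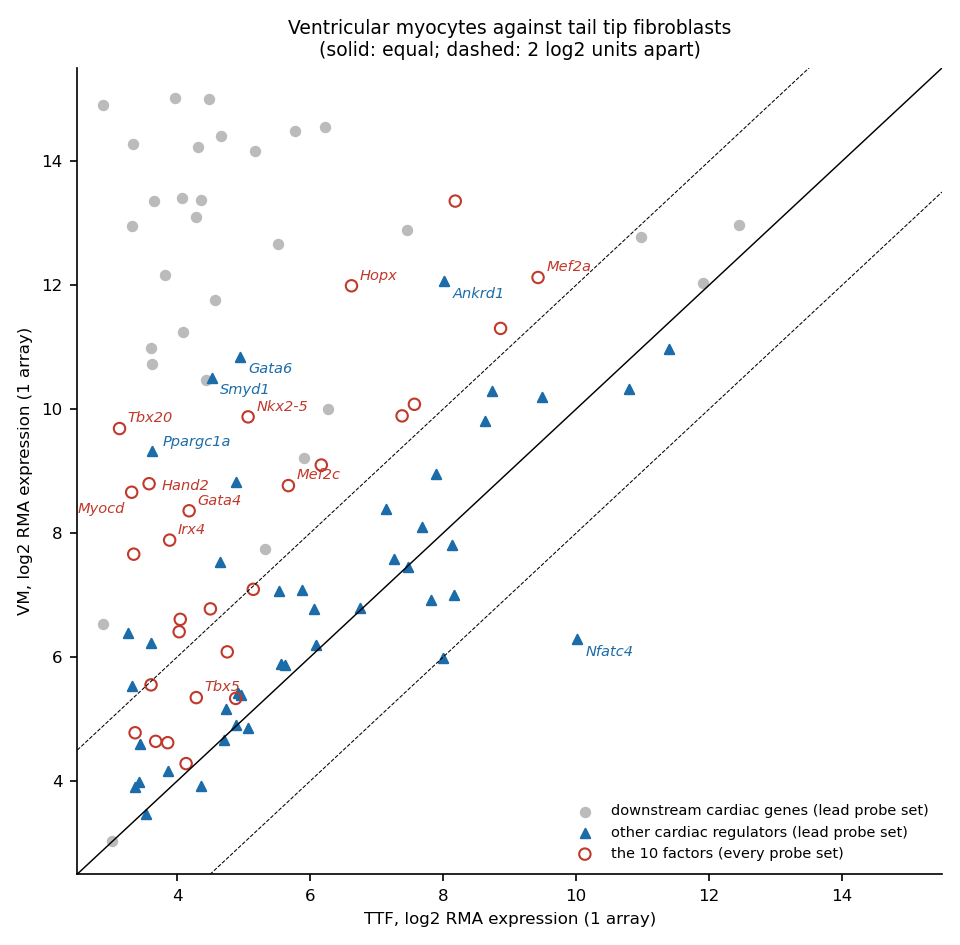
Each point is a probe set plotted by its log2 level in TTF (horizontal axis) and in VM (vertical axis), 1 array each, with a solid line of equal levels and dashed lines 2 log2 units apart from it. Of the 27 probe sets of the 10 factors (open circles), 18 lie above the upper dashed line, as do 26 of 30 downstream cardiac genes and 9 of 43 other regulators.

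The second comparison asked what reprogramming left of these levels. In all 3 ViPSC arrays, 19 of the 27 probe sets lay at least 2 log2 units below VM (background 4.86%), and by lead probe set 7 of 10 genes did (6.76% of genes). These include the 18 probe sets in which VM was at least 2 units above every other array, where this had to hold. The counts thus largely repeat the first comparison and are not separate evidence. The mean ViPSC minus VM difference differed widely by gene and probe set. It was -4.88 for Nkx2-5, -4.34 for Gata4 (1418863_at), -3.82 for Irx4 and -5.86 for Hopx (1428662_a_at). For Tbx20 it was -6.38 (1453351_at), -4.20 (1425158_at) and -1.85 (1422219_a_at, the lead), for Hand2 -5.12 (1436041_at), -1.12 (1443854_at) and -0.63 (1422221_at, the lead), and for Myocd -5.09 (1425978_at) and -2.43 (1425808_a_at, the lead). For Mef2c it was -4.51 (1424852_at) and for Mef2a -3.98 (1427185_at). For Tbx5 it was only -0.90 (1425695_at) and -0.41 (1425694_at). All 3 ViPSC arrays lay below VM in all 27 probe sets, which follows from VM being the highest array there.

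TiPSC against TTF gave smaller differences. TiPSC was at least 2 log2 units below TTF in all 3 arrays in 1 of the 27 probe sets (background 4.45%), Mef2c 1421027_a_at, with a mean difference of -2.52. At a margin of 1 unit the count was 6 of 27 (background 10.1%), all of Mef2c or Mef2a. For Nkx2-5, Gata4 and Irx4 the mean TiPSC minus TTF difference was -0.08, -0.03 (1418863_at) and -0.07, and the TiPSC arrays lay on both sides of TTF. For Hopx it was -0.43 (1428662_a_at) and -0.38 (1451776_s_at), with all 3 TiPSC arrays below TTF. The probe sets of Tbx5 gave 0.10 and 0.17, those of Tbx20 0.02 to 0.16, of Hand2 -0.04 to 0.47 and of Myocd 0.10 and 0.29, all at low levels.

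The third comparison set the pluripotent groups against one another with limma, adjusted over all 45037 probe sets. In ViPSC against TiPSC, the adjusted p was under 0.05 for 1 of the 27 probe sets, against 3.91% of all. It was Mef2a 1421252_a_at, which was higher in ViPSC, as 2.40% of all probe sets were, while none of the 27 was lower (1.51% of all). In ViPSC against ESC none of the 27 passed (background 1.22%, 0.850% higher and 0.373% lower), and the lowest limma adjusted p was 0.257. In TiPSC against ESC none passed either (background 0.213%, 0.0977% higher and 0.115% lower), and the lowest limma adjusted p was 0.0718. A p above the threshold does not show that groups were alike, but the 95% intervals bound the differences on this scale. All 27 lay within 1 log2 unit of 0 in each comparison, from -0.91 to 0.73, from -0.94 to 0.47 and from -0.73 to 0.43. Most of the 27 probe sets were near the low end of the scale, where RMA compresses differences. There the intervals do not bound differences in the amount of transcript.

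The arrays of ViPSC and TiPSC did not overlap in 7 of the 27 probe sets, while this was so in 28.2% of all probe sets. ViPSC and ESC did not overlap in 5 (18.8% of all), and TiPSC and ESC in 2 (14.2% of all). Median differences of the 27 were 0.00, -0.07 and -0.07, beside -0.02, -0.01 and 0.01 over all probe sets. These comparisons share arrays, so their values are given side by side and not as separate evidence.

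Mef2a 1421252_a_at was at 5.98, 5.86 and 6.05 in ViPSC, 5.50, 5.30 and 5.48 in TiPSC and 5.90, 5.90 and 5.90 in ESC. All ViPSC and ESC arrays were above all TiPSC arrays, and ViPSC and ESC overlapped. The ViPSC minus TiPSC difference was 0.54 ± 0.09 (SE, n = 3 arrays each; 95% interval 0.34 to 0.73), with a limma adjusted p of 0.0127. The call was lost without ViPSC replicate 1 (adjusted p = 0.0613) and without ViPSC replicate 3 (adjusted p = 0.0652). TiPSC minus ESC was -0.47 ± 0.09 with an adjusted p of 0.0718, which became 0.0182 without ESC replicate 1. ViPSC minus ESC was 0.06 ± 0.09. At this probe set TTF was at 7.38, above all pluripotent arrays, while the TiPSC arrays, the lowest here, had the highest fibroblast marker medians (6.77 to 7.26, against 6.20 to 6.54 in ViPSC). The part of fibroblast RNA in the difference was not tested.

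The other Mef2a probe sets did not all follow. The ViPSC minus TiPSC difference was 0.34 ± 0.13 at 1427186_a_at (adjusted p = 0.196), where the arrays overlapped, and 0.27 ± 0.14 at 1452347_at (adjusted p = 0.347), where they did not. It was 0.16 ± 0.14 at 1425426_a_at and 0.01 ± 0.12 at 1442623_at. The brightest probe set, 1427185_at, had the opposite sign, -0.22 ± 0.10 (adjusted p = 0.308). The 6 probe sets thus gave no single direction between the induced lines. On its chromosome, 7 in RefSeq, the median ViPSC minus TiPSC difference of 538 expressed genes was -0.04, near the -0.03 of 7202 autosomal genes.

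**Figure D4:**
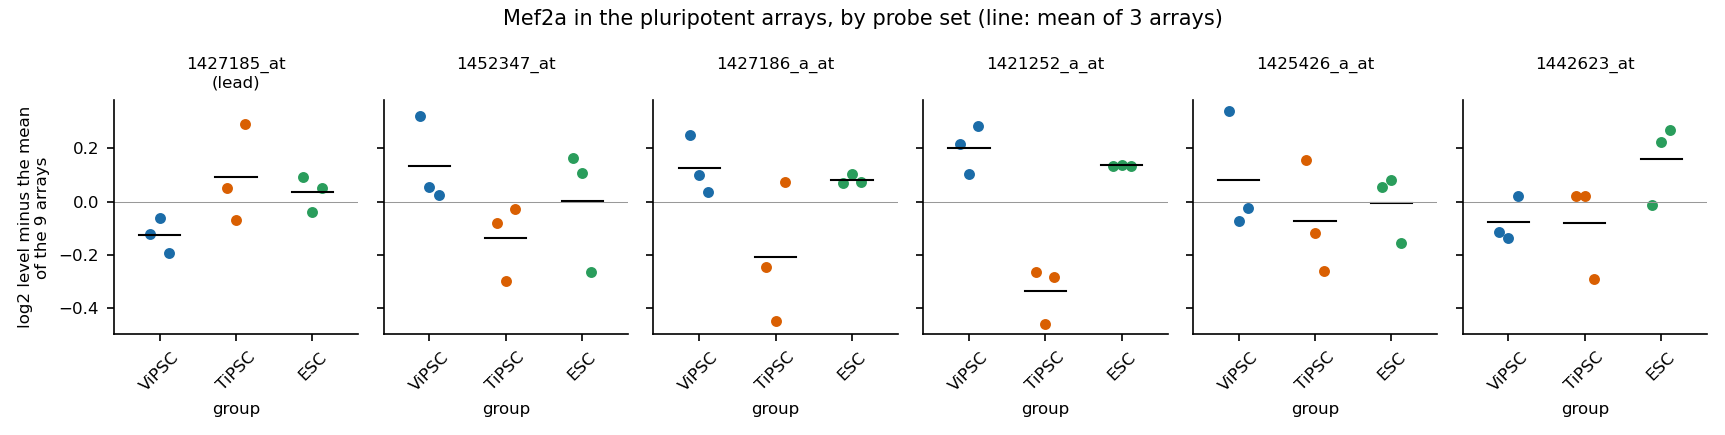
The 6 panels give the 6 Mef2a probe sets, with the log2 level of each pluripotent array minus the mean of the 9 arrays (vertical axis, log2 units) by group (horizontal axis) and a line at each group mean of 3 arrays. TiPSC lies below ViPSC and ESC at 1421252_a_at, and above ViPSC on average at the lead probe set 1427185_at.

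Mef2c and Tbx5 gave small differences among the pluripotent groups. The 5 Mef2c probe sets ran from -0.09 to 0.05 in ViPSC minus TiPSC, from -0.14 to 0.14 in ViPSC minus ESC and from -0.12 to 0.12 in TiPSC minus ESC, and their arrays overlapped throughout. Tbx5 differed by 0.06 ± 0.16 (1425695_at) and 0.18 ± 0.10 (1425694_at) in ViPSC minus TiPSC, by 0.09 and 0.11 in ViPSC minus ESC and by 0.03 and -0.07 in TiPSC minus ESC. In TiPSC minus ESC, Nkx2-5 gave -0.07, Irx4 -0.08, Gata4 -0.33 and 0.14, Tbx20 -0.25 to -0.19, Hand2 -0.06 to 0.08, Myocd 0.18 and -0.03, and Hopx -0.13 and -0.03. In ViPSC minus ESC, Nkx2-5 gave -0.08, Irx4 0.17, Hand2 -0.20 to -0.06, Myocd 0.21 and -0.07, and Hopx -0.39 and -0.50. In ViPSC minus TiPSC, Gata4 gave -0.13 and -0.09 and Tbx20 -0.07 to 0.09.

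Differences in other genes, some near that of Mef2a in size and some smaller, did not pass. The Hopx ViPSC minus TiPSC difference was -0.26 ± 0.20 and -0.47 ± 0.20 in its 2 probe sets (1428662_a_at and 1451776_s_at, adjusted p = 0.568 and 0.243), with no overlap of arrays in either. For Irx4 it was 0.25 ± 0.10 (adjusted p = 0.219), also without overlap. Gata4 was -0.46 ± 0.17 in ViPSC against ESC (1418863_at, adjusted p = 0.257), and Tbx20 was -0.26 ± 0.12 (1422219_a_at, adjusted p = 0.357), with all ViPSC arrays below all ESC arrays in both. The other probe sets of these genes gave 0.04 for Gata4 (1418864_at) and -0.17 and -0.12 for Tbx20 (1453351_at and 1425158_at). There the arrays overlapped.

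In Gata4 and Tbx20 the ESC mean rests in part on ESC replicate 1, which at 4.92 and 4.19 exceeded the other ESC arrays and which was the array with the raised primitive endoderm median. Gata6, a primitive endoderm gene and relative of Gata4, was at 7.01 in that array and at 4.09 and 3.89 in the other ESC arrays. The part of such cells in the Gata4 and Tbx20 values was not tested. Nkx2-5, by contrast, averaged 4.99 ± 0.05 over the ViPSC arrays, 4.99 ± 0.19 over TiPSC and 5.06 ± 0.17 over ESC (SD, n = 3 each), and its interval for ViPSC minus TiPSC ran from -0.27 to 0.27.

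**Figure D5:**
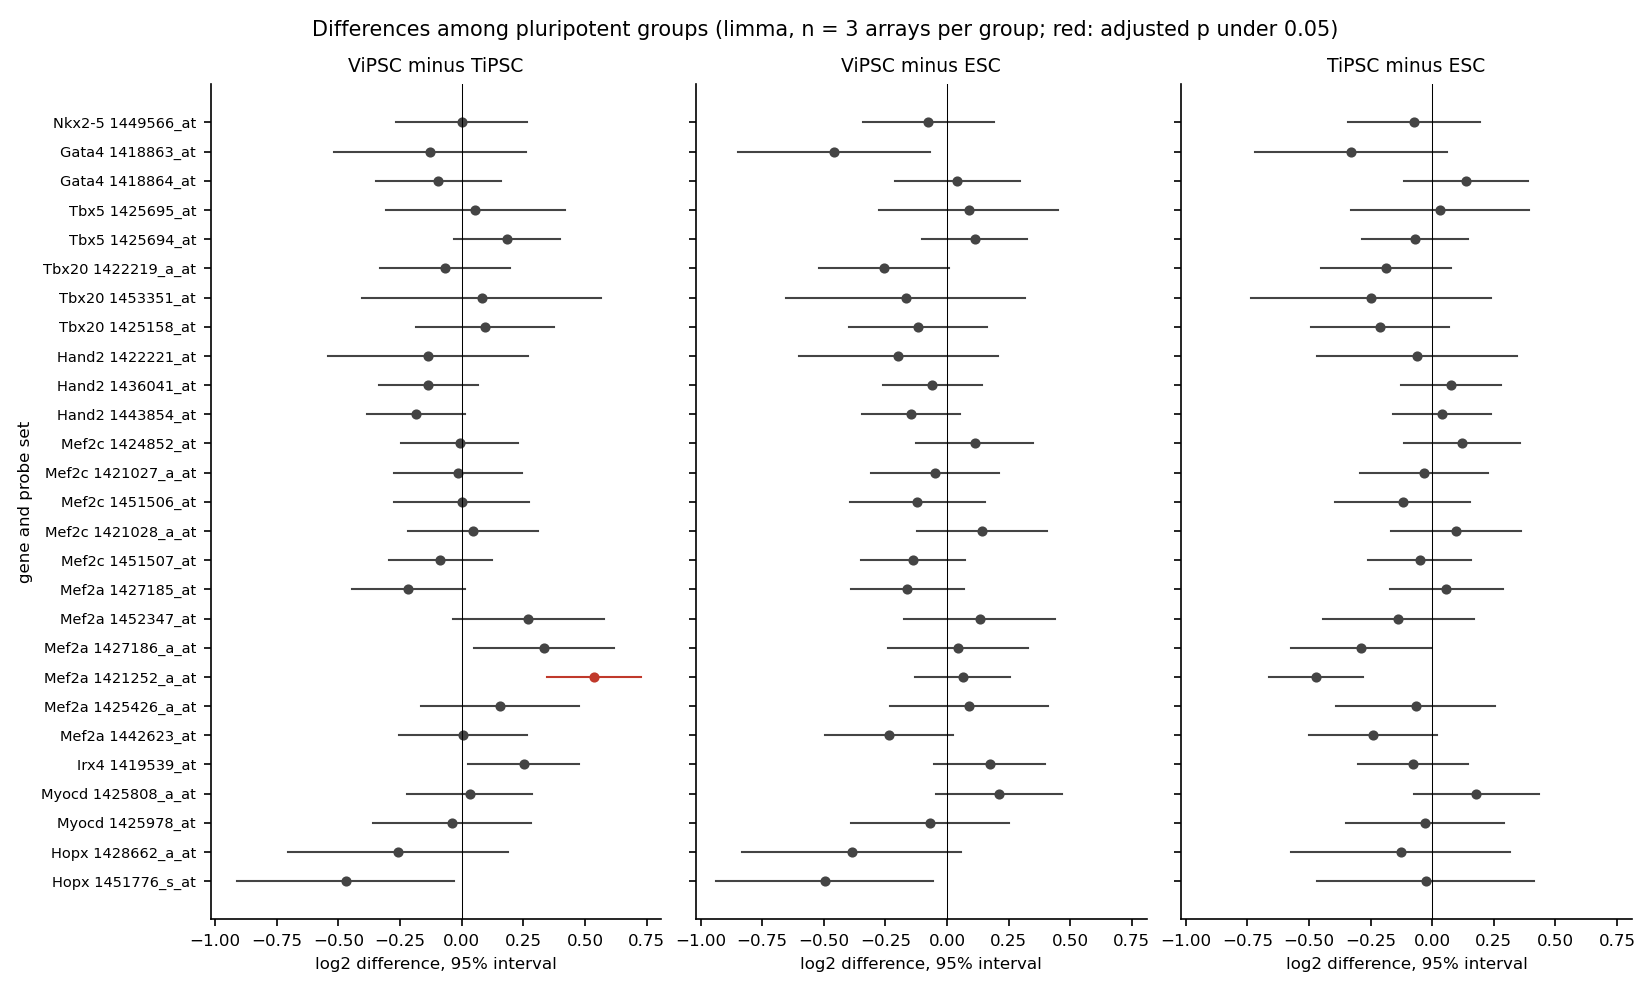
The 3 panels give, for each of the 27 probe sets (vertical axis), the limma log2 difference between pluripotent groups of 3 arrays each (horizontal axis) as a point with its 95% interval. The 1 interval in red is Mef2a 1421252_a_at in ViPSC minus TiPSC, at 0.54, and every interval lies within 1 log2 unit of 0.

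Myocd lies on chromosome 11 in RefSeq, where 644 expressed genes had a median ViPSC minus TiPSC difference of 0.44. Myocd itself differed by 0.03 ± 0.11 (1425808_a_at) and -0.04 ± 0.14 (1425978_at). Hand2 lies on chromosome 8, where the median of 422 expressed genes was -0.23, and it differed by -0.14 ± 0.18, -0.14 ± 0.09 and -0.19 ± 0.09 at 1422221_at, 1436041_at and 1443854_at. Both genes were near the low end of the scale in these cells, and the part of that in these values was not tested.

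None of the 10 genes passed at the lead probe set, against 4.92% of genes in ViPSC against TiPSC, 1.59% in ViPSC against ESC and 0.352% in TiPSC against ESC. Of 43 other regulators 1 passed, near these shares: Mef2d, another MEF2 gene. It was at 8.42, 8.51 and 8.28 in ViPSC, 7.72, 7.91 and 7.97 in TiPSC and 7.99, 7.81 and 7.78 in ESC, so that ViPSC did not overlap either group. Mef2d was higher in ViPSC than in TiPSC by 0.54 ± 0.10 (limma adjusted p = 0.0250) and than in ESC by 0.54 ± 0.10 (adjusted p = 0.0447). Of 30 downstream genes 1 passed, also near these shares: Myl4, the atrial and embryonic light chain, was 1.44 ± 0.21 higher in ViPSC than in TiPSC (adjusted p = 0.00994) and 0.91 ± 0.21 against ESC (adjusted p = 0.0804). In ViPSC, Myl4 was at 7.82, 7.48 and 7.65, against 9.999 in VM and 6.27 in TTF. The chromosomes of Mef2d and Myl4 were not looked at here. The part of a chromosome-wide shift, such as that of chromosome 11, in their differences was not tested.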

How the data were processed

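Total RNA of 11 mouse samples was measured on Affymetrix mouse expression arrays. The authors deposited log2 levels made with RMA, which corrects background, normalizes between arrays and summarizes probes, per the submitters' processing notes. The software and its version are not given in the sources used here, and RMA compresses differences near background. Symbols came from the platform annotation, in which 34945 probe sets had 1 symbol, 932 several and 9160 none, and chromosomes from RefSeq. The 64 control probe sets were left out.

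Groups were read from the sample titles. limma 3.58.1 in R 4.3.3 was fitted to 45037 probe sets and the 9 pluripotent arrays, with 1 mean per group, eBayes, two-sided moderated tests and Benjamini-Hochberg adjustment over all probe sets, and a call was an adjusted p under 0.05. The number of arrays limits the precision. VM and TTF were compared by differences of at least 2 log2 units with no test. Expressed genes on a chromosome had a mean level of at least 7. The script was tested on simulated data.

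All 10 genes were named in every comparison, though not every probe set. Of the lists, named were genes past the threshold among pluripotent groups, the 5 widest VM minus TTF differences in each direction for regulators and the 3 highest targets in VM. The 3 genes nearest each factor had the smallest root mean square difference. The members and lists were chosen with earlier results of these data known. Replicate numbers are shared by the pluripotent groups, but deviations of same-numbered arrays correlated between -0.262 and 0.0671, so they were not taken as pairs. Alternatives covered probe set choice, filters, arrays fitted, weights, scaling and each array left out.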

Additional observations from a re-analysis of the deposited data

Results flagged for a closer look

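In 7 of the 27 probe sets every ViPSC array lay below VM while every TiPSC array lay above TTF. The first condition held for all 27 probe sets, since VM was the highest array in each, so the share of such probe sets is not compared with that of other genes. The difference between the sources was not tested, as each had 1 array, and the TiPSC values do not show a movement beyond the spread of TTF, which is unknown. The mean TiPSC minus TTF difference was 0.161 and 0.0899 for Tbx20 (1422219_a_at and 1453351_at), 0.101 and 0.169 for Tbx5 (1425695_at and 1425694_at), 0.230 and 0.471 for Hand2 (1436041_at and 1443854_at) and 0.294 for Myocd (1425978_at). TTF levels of these 7 probe sets lay between 3.13 and 4.29, at the low end of the scale. For Hand2 1443854_at, TTF was at 3.37 and the TiPSC arrays were at 3.79, 3.93 and 3.79.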

How the results depend on the processing

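No called result reversed. Of 708 values for single genes under the alternatives, 695 stayed on the same side of the threshold, 5 fell below it and 8 passed it. Among the 695, 31 turned sign while past the threshold in neither setting. With the mean of all probe sets of a gene, Mef2a went from -0.22 to 0.18 in ViPSC minus TiPSC and from 0.06 to -0.19 in TiPSC minus ESC. No probe set of the 10 genes was called in ViPSC against ESC under any alternative run. The count in ViPSC against TiPSC, 1 probe set, became 0 with 1 probe set per gene by highest mean, by largest range (chosen after seeing the data) or by the mean of all probe sets, settings in which Mef2a 1421252_a_at is not tested alone, and 2 with array weights, which add Mef2a 1427186_a_at. Leaving out 1 array at a time gave 0 to 2, with 2 without TiPSC replicate 3. The count in TiPSC against ESC, 0, became 1 with array weights (Mef2a 1421252_a_at, adjusted p = 0.0421) and 0 to 1 with 1 array left out. The count of genes lower in TiPSC than TTF, 0, became 1, Mef2c, at a margin of 1 log2 unit and with the probe set of largest range. The VM minus TTF count of 7 genes ranged from 5 at a margin of 3 log2 units to 9. The cause of these changes was not otherwise tested. With the replicate block, the counts were 1 in ViPSC against TiPSC and 0 in both comparisons with ESC, so the block changed no call of these genes. Most of the 27 probe sets were near the low end of the scale in the pluripotent arrays, which limits what 3 arrays a group can show.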

Other observations

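Of 25 paralogs of the 10 factors, 1 (Gata6) exceeded its TTF level by 2 log2 units or more in VM, and 2, Tbx15 (4.51 against 7.42) and Irx1, were lower by that margin, beside 4.68% and 4.62% of all genes. Irx3, Mef2d, Mrtfb and Tbx1 came next on the high side, with differences of 1.18, 1.06, 0.71 and 0.56, and Irx2, Gata3 and Mrtfa on the low side, with -1.17, -0.93 and -0.91. Between pluripotent groups, Gata3 and Mef2d passed the test, Gata3 in ViPSC against TiPSC, where 4.92% of all genes passed. Gata3, a trophoblast and lymphoid relative of Gata4, was at 6.86, 7.17 and 6.95 in ViPSC, 5.10, 5.40 and 5.59 in TiPSC, 6.07, 6.54 and 5.91 in ESC, 4.64 in TTF and 3.72 in VM. Gata3 was 1.63 ± 0.18 higher in ViPSC than in TiPSC (limma adjusted p = 0.00323), with no overlap of arrays. The list of 9 trophoblast markers, which holds Gata3, had medians of 7.34 to 7.59 in ViPSC, 6.19 to 6.44 in TiPSC and 6.80 to 6.96 in ESC, and 4 of the 9 passed in ViPSC against TiPSC (Gata3, Ascl2, Plac1 and Krt7, all higher in ViPSC). The part of trophoblast-like cells in the Gata3 difference was not tested.

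Of 18 co-repressors and upstream signals, 4 were higher in VM by that margin and none was lower, beside 4.68% and 4.62% of all genes: Kdr (11.12 against 4.75), a receptor of endothelial cells, Bmp2 (6.54 against 3.71), Hdac9 (6.36 against 3.73) and Bmp4 (8.34 against 6.25). Hdac5 followed with a difference of 1.34, and at the other end were Mapk14, Hdac4, Hdac2, Fgf10 and Smad4, between -0.92 and -0.16. Hdac5, which binds and represses MEF2 proteins, was at 8.51, 8.60 and 8.45 in ViPSC, 7.87, 7.98 and 7.94 in TiPSC and 7.71, 7.23 and 7.72 in ESC. Hdac5 was higher in ViPSC than in TiPSC by 0.59 ± 0.13 (limma adjusted p = 0.0392). Against ESC it was higher by 0.97 ± 0.13 (limma adjusted p = 0.0152). The chromosome of Hdac5 was not looked at here. Whole chromosomes can differ between these groups. On chromosome 11 the median of 644 expressed genes was 0.44 in ViPSC minus TiPSC and 0.37 in ViPSC minus ESC. The part of such a shift in the Hdac5 differences was not tested.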
